A study of Homo sapiens with 16 samples.

Results

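Fatty acid synthesis and desaturation was followed through 10 genes (FASN, ACACA, ACLY, ACSS2, SCD, ELOVL6, FADS1, FADS2, SREBF1 and ME1) in a HER2-amplified breast cancer cell line treated with an inhibitor of HER2. The members were all probes of the deposited array table whose gene symbol was one of these 10, which gave 17 of the 24526 probes and 10 of the 18631 symbols. All 10 genes had at least 1 probe detected on all 16 arrays. The cells were SUM-225 (written SUM225 in the study), a line derived from a breast cancer that amplifies and over expresses HER-2, and every culture belonged to this 1 line. CP724,714, a small molecule inhibitor of the HER2 kinase, was added at 1 µM, and the RNA of parallel cultures was taken at intervals of 3 h, the first at 0 h and the last at 45 h. One culture per time point was hybridised to 1 Illumina bead array, so that the 16 arrays are 16 groups of 1 sample, and the 0 h culture is the only one without time in the inhibitor. According to the labels the medium was Ham's F-12 with fetal bovine serum, insulin and hydrocortisone, whereas the study's methods describe a medium for this line without insulin or EGF. No untreated time course was analysed here, and time in culture cannot be told apart from the inhibitor.

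New fatty acids are built in the cytosol from acetyl-CoA. ATP citrate lyase (ACLY) makes acetyl-CoA from citrate and ACSS2 makes it from acetate, while malic enzyme (ME1) is a source of the NADPH that chain building consumes. Acetyl-CoA carboxylase (ACACA) forms malonyl-CoA, fatty acid synthase (FASN) joins these units into palmitate, ELOVL6 lengthens palmitate, and the desaturases SCD, FADS1 and FADS2 introduce double bonds. SREBF1 encodes SREBP-1, a membrane-bound transcription factor that is cut in response to insulin and lipid supply and then activates genes of this pathway. Breast cancers with HER2 amplification are known for high fatty acid synthase.

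Because there were no replicates, each error below is a standard error around a course fitted over the arrays, and p-values rest on the deviations from that course. Values are background-corrected, quantile-normalised log2 signals unless a signal is named. The arrays were divided into 4 sets of 4 consecutive time points (0 to 9, 12 to 21, 24 to 33 and 36 to 45 h). This division was noticed in earlier results of these data, and the labels name no batch. Of the 15 steps between adjacent arrays, the largest lay at a border between sets for 14.9% (9 to 12 h), 9.21% (21 to 24 h) and 4.66% (33 to 36 h) of all probes tested. Inside sets it lay at 42 to 45 h for 16.7% and at 3 to 6 h for 12.7%. The share at the 33 to 36 h border was thus below those of both these steps inside sets. A change at 9 to 12 h, 21 to 24 h or 33 to 36 h cannot be told apart from a difference between sets of arrays. The median signal of an array ranged from 242 to 384, and between 57.5% and 61.5% of probes had a detection p-value under 0.05. The markers of a HER2-amplified luminal line (ERBB2, GRB7, KRT8, KRT18, KRT19, CDH1 and EPCAM) were detected on all 16 arrays, with a summed signal of 210468 to 278304. The dimmest of them were EPCAM (461 to 1185) and KRT18 (724 to 1756). Of the 3 adipocyte markers, ADIPOQ was detected on 1 array and PLIN1 and FABP4 on 2 arrays each, and their summed signal lay between 545 and 776. The leukocyte marker PTPRC and the hepatocyte markers ALB and APOA1 were detected on none. The leukocyte marker CD14 (signals of 1923 to 4563) and the endothelial marker PECAM1 were detected on all 16, and the endothelial marker VWF on 13. Of the fibroblast markers, COL1A1 and COL1A2 were detected on 5 arrays each and COL3A1 on 0.

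Most of the pathway was lower late in treatment, and the genes differed in how far and when. The longest falls were those of the desaturases FADS1 and FADS2 and the elongase ELOVL6, followed by ACLY and ME1, and FASN fell less. SREBF1 rose, and ACACA, ACSS2 and SCD were not past the threshold of the linear test. Of the 17 probes, 14 were detected on at least 3 arrays and were tested. The other 3 were dim probes of ACACA (ILMN_1667641) and ACSS2 (ILMN_2254962), detected on no array, and of SREBF1 (ILMN_1695378), detected on 2. By the F-test of a cubic fitted with limma, 10 of the 14 tested probes had a time-dependent signal, against 51.3% of all 16110 probes tested. A linear trend was found for 8, against 47.7% of all probes. Of these, 2 rose and 6 fell, against 26.0% rising and 21.7% falling among all probes. The course departed from a straight line for 8 of the 14, against 19.3% of all probes. The median linear change of the 14 probes was -0.17 log2 units over 45 h and that of all probes tested was 0.05.

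**Figure D1:**
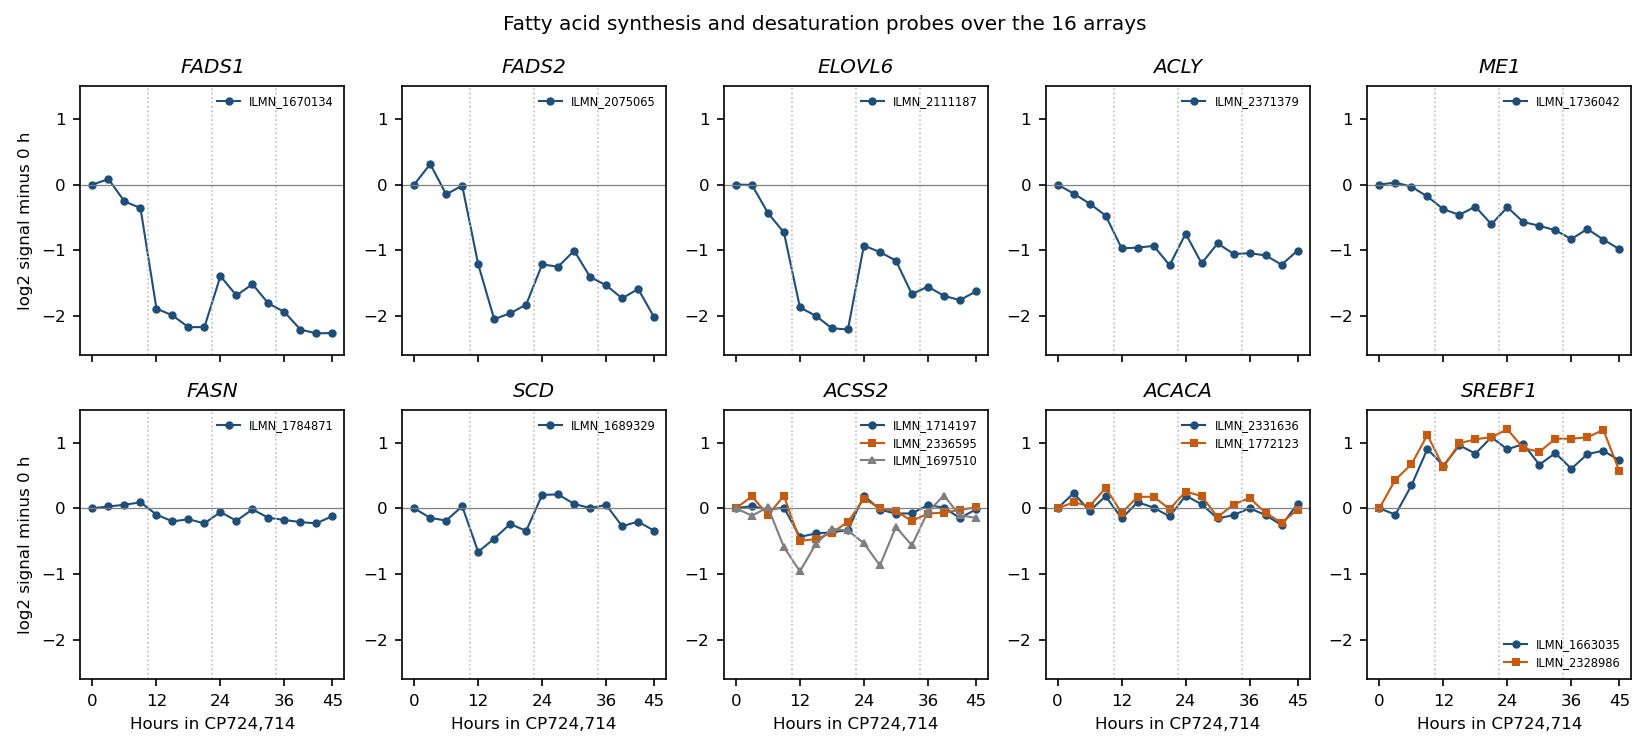
Log2 signal of each tested probe minus its own value at 0 h (vertical axis) against hours in CP724,714 (horizontal axis), 1 panel per gene, 1 point per array and 1 line per probe. Dotted lines mark the borders between sets of 4 arrays. FADS1, FADS2 and ELOVL6 drop to between -1.21 and -2.21 at 12 to 21 h and recover in part at 24 h, SCD and the bright ACSS2 probes dip at 12 h and return, and SREBF1 climbs by 9 h and stays above 0 h.

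Several kinds of course were seen, and the sequence just upstream of 1 gene of each is shown. Sequences were not compared between kinds of course, and a link between sequence and course was not tested. FADS1 stands for the deep fall, SCD for the dip with return, ME1 for the steady decline and SREBF1 for the rise. The 250 bases before the gene start are given 5′ to 3′ on the strand of the gene, from the RefSeq promoter table (GRCh38.p14), with GC boxes (GGGCGG on either strand) and CCAAT boxes (CCAAT on either strand) in capitals. The FADS1 window is chr11:61817004-61817253 on the minus strand and lies within the annotated span of FADS2, its neighbour on the opposite strand. The SCD window is chr10:100346983-100347232 on the plus strand, the ME1 window is chr6:83431052-83431301 on the minus strand and the SREBF1 window is chr17:17836987-17837236 on the minus strand.
FADS1: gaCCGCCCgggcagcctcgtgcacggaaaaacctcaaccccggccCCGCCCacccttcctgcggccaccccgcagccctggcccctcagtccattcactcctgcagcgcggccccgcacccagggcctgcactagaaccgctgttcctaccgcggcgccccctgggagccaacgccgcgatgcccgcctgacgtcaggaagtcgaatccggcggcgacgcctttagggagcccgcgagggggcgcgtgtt
SCD: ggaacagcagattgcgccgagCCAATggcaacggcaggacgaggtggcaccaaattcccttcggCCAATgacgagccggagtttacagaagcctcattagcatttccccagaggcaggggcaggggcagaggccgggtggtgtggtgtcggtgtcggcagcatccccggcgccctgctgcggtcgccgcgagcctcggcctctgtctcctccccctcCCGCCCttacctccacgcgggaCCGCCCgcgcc
ME1: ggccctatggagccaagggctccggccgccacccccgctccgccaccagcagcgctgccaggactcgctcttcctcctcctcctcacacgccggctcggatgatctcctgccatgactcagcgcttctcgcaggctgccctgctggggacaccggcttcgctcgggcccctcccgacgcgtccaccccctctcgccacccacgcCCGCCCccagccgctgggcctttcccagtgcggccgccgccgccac
SREBF1: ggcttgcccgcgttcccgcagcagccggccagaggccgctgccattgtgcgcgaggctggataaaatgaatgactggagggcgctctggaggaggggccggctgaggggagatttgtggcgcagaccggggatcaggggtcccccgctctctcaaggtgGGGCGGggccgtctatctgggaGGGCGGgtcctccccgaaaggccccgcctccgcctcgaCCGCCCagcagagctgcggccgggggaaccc
The table held 14 windows for 9 of the 10 genes, with no entry for FASN. A sterol regulatory element written as TCACNCCAC, a form bound by SREBP, was searched on both strands. It was in 0 of the 14 windows, against 0.883% of all 35116 windows of this length. Other forms of this element were not searched. The E-box CACGTG was in 0 of the 14 and in 6.34% of all windows, and so was its longer form TCACGTGA, which contains it, with 0 and 0.854%. A CCAAT box was in 6 of the 14 windows (4 genes) against 32.0% of all, and a GC box in 12 of the 14 (all 9 genes) against 42.6%. These percentages are shares of windows and not of genes. The ACLY windows overlap each other, as do the FADS2 windows, and some ACLY boxes lie in more than 1 window. A match is a string of letters and was not tested as a binding site. The absence of a match concerns only these strings and these 250 bases, and other binding sites may be present.

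SREBF1, the regulator of the group, was the member that rose. Its brighter probe (ILMN_1663035) had log2 values of 10.46, 10.36, 10.80 and 11.36 at 0, 3, 6 and 9 h. It then lay between 11.11 and 11.54 at 12 to 21 h, between 11.12 and 11.44 at 24 to 33 h, and between 11.06 and 11.33 at 36 to 45 h. Every array from 6 h on was thus above the arrays at 0 and 3 h, and the highest value, at 21 h, was 2.12-fold that at 0 h. Over 45 h this probe had a linear change of 0.58 ± 0.13 log2 units (SE, adjusted p = 0.000905 in limma) and a curved course (adjusted p = 0.00159). The second tested probe (ILMN_2328986) moved in the same way, from 8.32 at the start to 9.43, 9.52 and 8.88 at 9, 24 and 45 h, with a linear change of 0.54 ± 0.16 (adjusted p = 0.00804). Leaving out the 0 h array brought the change of this second probe to 0.28 (adjusted p = 0.188), no longer past the threshold. With a step between 21 and 24 h or with the set of arrays as a factor, neither SREBF1 probe was past it (adjusted p from 0.106 to 0.556), at values of 0.62 to 1.60.

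The brighter SREBF1 probe moved most between 6 and 9 h, by 0.56, which is within a set of arrays, and the other between 42 and 45 h, by -0.62. Both were lower at 12 h than at 9 h, by 0.25 and 0.49. The mean at 12 to 21 h was 0.50 ± 0.16 above that at 3 to 9 h for the brighter probe (adjusted p = 0.0285, with overlapping values) and 0.20 ± 0.17 for the other (adjusted p = 0.42). The first of these differences lost its call in the fits without the 3, 6, 15 or 21 h array, where it was 0.26, 0.48, 0.47 and 0.43. The table does not say which SREBF1 transcripts the probes match.

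Among the enzymes that supply acetyl-CoA and NADPH, ACLY and ME1 fell and ACSS2 did not pass the linear test. ACLY (ILMN_2371379) had log2 values of 13.38, 13.25, 13.09 and 12.91 at 0, 3, 6 and 9 h, then 12.15 to 12.45 at 12 to 21 h, 12.18 to 12.64 at 24 to 33 h and 12.16 to 12.38 at 36 to 45 h. It was therefore lower at each of the first harvests and on every array from 12 h on than on any array up to 9 h. The linear change was -0.96 ± 0.12 (adjusted p = 1.88e-06), the course was curved (adjusted p = 0.00486), and the 45 h value was 2.01-fold below that at 0 h. With a step between 21 and 24 h the linear change was -1.61 (adjusted p = 0.000234 in limma). That fit holds a separate jump there, so its linear change is not the net change over 45 h. ME1 (ILMN_1736042) declined more evenly, from 12.35 at the start to 12.17, 11.74, 11.65 and 11.37 on the last array of each set (9, 21, 33 and 45 h), the last being its lowest value. Its linear change was -0.94 ± 0.09 (adjusted p = 7.32e-08), with no departure from a straight line found (adjusted p = 0.669). Inside every set ME1 ended lower than it began, with differences of -0.18, -0.23, -0.35 and -0.15. With the set as a factor neither ACLY (-1.11 ± 0.44, adjusted p = 0.235) nor ME1 (-1.09 ± 0.35, adjusted p = 0.149) was past the threshold.

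ACSS2, the acetate-using enzyme, had 3 tested probes that did not move alike. The brightest (ILMN_1714197) stood between 14.70 and 14.75 at 0 to 9 h, between 14.29 and 14.39 at 12 to 21 h, between 14.64 and 14.91 at 24 to 33 h and between 14.57 and 14.77 at 36 to 45 h. The 12 to 21 h arrays were thus below all others. The second (ILMN_2336595) did the same, with 14.32 to 14.61, 13.92 to 14.21, 14.23 to 14.56 and 14.34 to 14.43 in the same 4 sets. Their linear changes were 0.08 ± 0.12 (adjusted p = 0.603) and 0.03 ± 0.14 (adjusted p = 0.888), and both changed sign under other scalings. The dim probe (ILMN_1697510, signals of 404 to 688) was lowest at 12 h (7.87) and highest at 39 h (9.02). Pearson r over the 16 arrays was 0.88 between the bright probes, and 0.36 and 0.31 between each of them and the dim one.

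Of the chain-building enzymes, FASN fell and ACACA was not past the threshold of the linear test or the F-test. FASN (ILMN_1784871) lay between 15.83 and 15.92 at 0 to 9 h, between 15.60 and 15.73 at 12 to 21 h, between 15.64 and 15.81 at 24 to 33 h and between 15.60 and 15.71 at 36 to 45 h. Every array up to 9 h was above every later array. The linear change was -0.22 ± 0.07 (adjusted p = 0.012) and the whole range was 1.25-fold. The linear change was -0.43 under median scaling (adjusted p = 0.0138 in limma). It was -0.58 with a step between 21 and 24 h (adjusted p = 0.00785), beside a separate jump there. With signals of 42030 to 64267, FASN reached 88.7% of the brightest signal on an array, near the top of what the array can show. Before correction and scaling its signal was 54538 to 64267 at 0 to 9 h and 55712 to 60193 at 12 to 21 h. The median signals of these arrays were 242 to 296 and 294 to 361. The part of the scaling in the FASN fall was not tested. With the set as a factor the linear change of FASN was 0.0019 ± 0.23. ACACA had bright probes with ranges of 1.40-fold (ILMN_2331636, from 11.62 to 12.11) and 1.44-fold (ILMN_1772123, from 11.08 to 11.61). Their linear changes were -0.18 ± 0.11 (adjusted p = 0.201) and -0.16 ± 0.11 (adjusted p = 0.26), their F-tests had adjusted p-values of 0.515 and 0.304, and both were lowest at 42 h. With array weights the first of them had a linear change of -0.36 that was past the threshold (adjusted p = 0.00917).

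ELOVL6, which lengthens the palmitate that FASN makes, fell and then recovered in part. Its probe (ILMN_2111187) read 12.90 at 0 and 3 h, 12.47 at 6 h and 12.18 at 9 h, then 11.03, 10.91, 10.72 and 10.70 at 12, 15, 18 and 21 h. At 24 h it was back at 11.98, and it declined again to 11.88, 11.75 and 11.24 at 27, 30 and 33 h and to between 11.15 and 11.35 at 36 to 45 h. The linear change was -1.28 ± 0.31 (adjusted p = 0.00178) with a curved course (adjusted p = 0.0135), and the range was 4.61-fold. With a step between 21 and 24 h in the fit the linear change was -3.97 (adjusted p = 1.86e-06 in limma), beside a separate jump there. The whole range of ELOVL6 over the 16 arrays was 2.21 log2 units. The rise from 21 to 24 h, 1.28 log2 units, was its largest step. Inside every set ELOVL6 ended lower than it began (-0.73, -0.34, -0.74 and -0.07). With the set as a factor its linear change within sets was -2.42 ± 0.50 (adjusted p = 0.0337), and it was the only one of the 14 probes past the threshold in that fit, in which 0.900% of all probes were called.

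FADS1 and FADS2, which introduce double bonds near the carboxyl end in the making of long polyunsaturated fatty acids, had the largest linear changes of the group. FADS1 (ILMN_1670134) read 11.15, 11.23, 10.89 and 10.79 at 0, 3, 6 and 9 h and 9.26, 9.16, 8.98 and 8.98 at 12, 15, 18 and 21 h. It was 9.75 at 24 h and 9.46, 9.63 and 9.34 at 27, 30 and 33 h, then 9.21, 8.94, 8.88 and 8.89 at 36 to 45 h. FADS2 (ILMN_2075065) lay between 9.41 and 9.87 at 0 to 9 h, was 8.34 at 12 h, lay between 7.51 and 7.73 at 15 to 21 h, between 8.15 and 8.55 at 24 to 33 h, and between 7.54 and 8.02 at 36 to 45 h. For both genes every array up to 9 h was above every later one. The linear changes were -2.09 ± 0.29 (adjusted p = 6.31e-06 in limma) for FADS1 and -1.75 ± 0.32 (adjusted p = 0.000154) for FADS2. At 45 h the values were 4.79-fold and 4.05-fold below those at 0 h. Without background correction the linear changes were -1.79 and -1.25. Signals ran from 517 to 2319 for FADS1 and from 313 to 892 for FADS2. The FADS2 signal of 313 was at 45 h, where the median signal of the array was 268. The whole ranges over the 16 arrays were 2.35 and 2.36 log2 units. With a step between 21 and 24 h the linear changes were -4.07 and -3.72, beside a separate jump there. With the set as a factor they were -1.70 ± 0.44 (adjusted p = 0.0712) and -1.46 ± 0.72 (adjusted p = 0.36). These neighbouring genes had the most similar courses of any pair of member genes (Pearson r = 0.97 over 16 arrays).

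SCD, the desaturase that turns saturated into monounsaturated fatty acids, dipped and returned. Its values (ILMN_1689329) were 14.62, 14.47, 14.43 and 14.65 at 0 to 9 h, 13.95, 14.15, 14.38 and 14.27 at 12 to 21 h, 14.82, 14.83, 14.68 and 14.62 at 24 to 33 h and 14.67, 14.34, 14.41 and 14.28 at 36 to 45 h. The lowest value was therefore at 12 h and the highest at 27 h, 1.83-fold apart. The linear change, 0.06 ± 0.14, was not past the threshold (adjusted p = 0.766) and changed sign under median scaling, while the F-test (adjusted p = 0.0345) and the departure from a straight line (adjusted p = 0.0405) were past it.

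**Figure D2:**
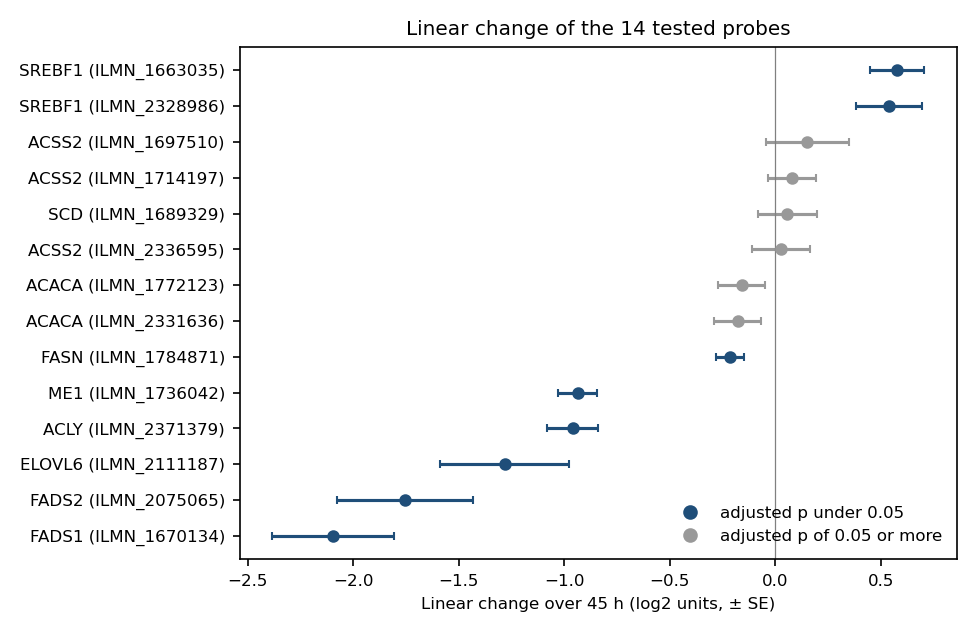
Linear change over 45 h in log2 units (horizontal axis) of the 14 tested probes (vertical axis), from the cubic fit over 16 arrays, with bars of 1 SE. Dark points had an adjusted p under 0.05 and grey points did not, and the values run from -2.09 for FADS1 to 0.58 for the brighter SREBF1 probe.

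To place the changes in time, the means of consecutive windows were compared, with 0 h alone as the first window and its spread assumed to be like that of the others. No member probe differed between 3 to 9 h and 0 h at an adjusted p under 0.05 (0 of 14 in limma, against 2.33% of all probes, and 1 of 14, the SREBF1 probe ILMN_2328986, at an unadjusted p under 0.05). From 3 to 9 h to 12 to 21 h, 9 of the 14 probes fell and 1 rose, against 12.9% and 14.8% of all probes. The falls were -1.88 ± 0.13 for FADS1, -1.81 ± 0.18 for FADS2, -1.68 ± 0.16 for ELOVL6 and -0.72 ± 0.11 for ACLY. They were -0.48 ± 0.09 and -0.39 ± 0.07 for the bright ACSS2 probes, -0.38 ± 0.10 for ME1, -0.33 ± 0.10 for SCD and -0.23 ± 0.05 for FASN (-0.49 under median scaling), with adjusted p-values from 2.43e-08 (FADS1) to 0.0183 (SCD). The values of the windows did not overlap for any of these 9 probes, which were picked by the same difference. How many of all probes did not overlap was not counted. Before correction and scaling the FASN signals of the windows did overlap (54538 to 64267 and 55712 to 60193). The median difference was -0.35 over the 14 probes and 0.04 over all probes. The SCD call was lost without the 9 h array, where its difference was -0.26, and without the 12 h array, where it was -0.25.

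From 12 to 21 h to 24 to 33 h, 6 of the 14 probes rose and 0 fell, against 5.20% and 4.11% of all probes. ELOVL6 rose by 0.87 ± 0.15, SCD by 0.55 ± 0.09, FADS2 by 0.54 ± 0.17, FADS1 by 0.45 ± 0.12 and the bright ACSS2 probes by 0.38 ± 0.06 and 0.36 ± 0.08, with adjusted p-values from 0.000451 (ACSS2) to 0.0478 (FADS2). The mean at 24 to 33 h was above that at 3 to 9 h for SCD (14.74 against 14.52). It was near it for the brightest ACSS2 probe (14.72 against 14.73) and lower for the second (14.40 against 14.51). For ELOVL6, FADS1 and FADS2 it stayed lower, with means of 11.71 against 12.52, 9.55 against 10.97 and 8.33 against 9.60. The difference between these windows was not tested. ACLY (0.05 ± 0.10) and FASN (0.07 ± 0.05) were not called. The FADS2 call was lost in 11 of the 16 fits that leave out an array, and the FADS1 call in those without the 18, 21, 24 or 30 h array (0.38 to 0.42). From 24 to 33 h to 36 to 45 h, FADS1 fell by 0.57 ± 0.12 (adjusted p = 0.00776) and was the only one of the 14 probes called, against 3.11% of all probes falling and 0.900% rising. FADS2 (-0.50 ± 0.17, adjusted p = 0.12), ELOVL6 (-0.46 ± 0.15, adjusted p = 0.0981) and SCD (-0.31 ± 0.09, adjusted p = 0.0626) had differences of the same sign.

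**Figure D3:**
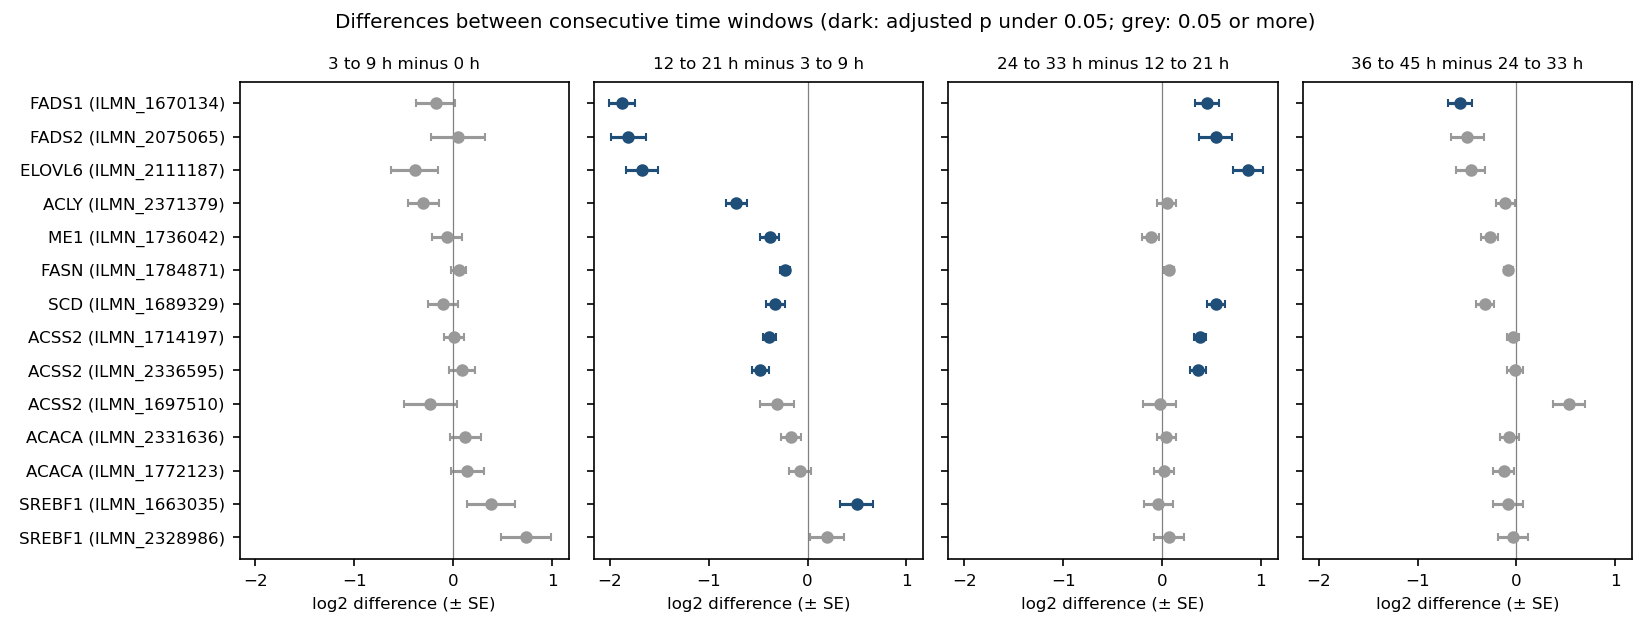
Difference in mean log2 signal between each time window and the one before it (horizontal axes, bars of 1 SE) for the 14 tested probes (vertical axis), with dark points at an adjusted p under 0.05. The second panel holds 9 falls and 1 rise, and the third holds 6 rises and no fall.

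These windows share their borders with the sets of arrays. The largest step between adjacent arrays lay between 9 and 12 h for 8 of the 14 probes (14.9% of all probes tested) and between 21 and 24 h for 2 (9.21% of all). The step from 9 to 12 h was -1.53 for FADS1, -1.20 for FADS2, -1.14 for ELOVL6 and -0.69 for SCD. All 12 enzyme probes were lower at 12 h than at 9 h, among them both ACACA probes (-0.34 and -0.38). Both SREBF1 probes were lower too (-0.25 and -0.49). Of the 12 enzyme probes, 11 were higher at 24 h than at 21 h. From 9 to 12 h the median step, its sign left out, was 0.47 for the 14 probes and 0.23 for all probes. From 21 to 24 h it was 0.33 and 0.19. How many of all probes moved in each direction at these steps was not counted. The part of the array sets in these steps was not tested. Within the first set, before any border, ELOVL6 had changed by -0.73, ACLY by -0.47 and FADS1 by -0.36 at 9 h against 0 h, while SREBF1 had risen by 0.90 and 1.11, FADS2 stood at -0.02 and FASN at 0.09, as single values with no test. FADS1 ended each of the 4 sets lower than it began, with differences of -0.36, -0.28, -0.42 and -0.32.

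Of the 45 pairs of member genes, taken by their brightest probes, 36 had a Pearson r above 0 over the 16 arrays and 9 below 0. The median was 0.45. The 9 pairs below 0 were those of SREBF1 with each other member. Pairs of genes outside the group were not counted in this way. After FADS1 with FADS2, the highest values were those of ACLY with FADS1 (0.95), ELOVL6 with FADS1 (0.93) and ELOVL6 with FADS2 (0.92). The lowest involved SREBF1, with ACLY (-0.83), ELOVL6 (-0.76) and FADS1 (-0.75). All points share the same arrays and therefore any offset between sets. Outside the group, the 5 genes most like FASN over the 16 arrays were ANKRD36, LOC643668, PAFAH1B3, RP11-19J3.3 and COMMD4 (r of 0.91 to 0.93). Those most like SCD were MTSS1, FGFBP1, IDH3B, SRR and LSS (r of 0.85 to 0.87), of which LSS is lanosterol synthase of the sterol pathway (linear change -0.29 ± 0.30, adjusted p = 0.455).

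The other genes of fatty acid metabolism were counted by their brightest probe, as were all 13108 genes tested, of which 27.0% rose and 22.0% fell in the linear test with a median change of 0.06. By the same count 6 of the 10 member genes fell and 1 rose, with a median of -0.58. Among the regulators of SREBP and of lipogenesis the count ran the other way, with 11 of 23 tested genes rising and 3 falling (median 0.23). INSIG1, which holds SREBP back in the endoplasmic reticulum and is itself an SREBP target, fell by 0.98 ± 0.24 (adjusted p = 0.00227), and INSIG2, its paralog, rose by 0.43 ± 0.08 (adjusted p = 0.000102). SREBF2 (0.12 ± 0.17, adjusted p = 0.61) and SCAP (-0.03 ± 0.11, adjusted p = 0.83), the escort of SREBP, were not past the threshold. The largest changes of this list were those of THRSP (1.68 ± 0.34), a lipogenic nuclear protein, PRKAA1 (1.34 ± 0.09), a catalytic subunit of AMP-activated kinase, and MLXIPL (-1.33 ± 0.21), the carbohydrate response factor ChREBP.

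Other elongases, desaturases and chain-making enzymes were split, with 5 of 14 rising and 5 falling (median -0.28). HACD1 (PTPLA on the array), a dehydratase of the elongation cycle, changed by -2.72 ± 0.19, HACD3 (PTPLAD1) by -0.70 ± 0.13 and ELOVL1 by 0.78 ± 0.10. Of the genes that supply acetyl-CoA and NADPH, 2 of 15 rose and 4 fell (median 0.03), and those with the largest changes were ME3 (-1.29 ± 0.20), the citrate carrier SLC25A1 (-0.88 ± 0.21) and citrate synthase CS (-0.65 ± 0.08). Of the acyl-CoA synthetases, 2 of 11 rose and 3 fell (median -0.16), with SLC27A2 at -1.09 ± 0.22, ACSL1 at 0.86 ± 0.15 and SLC27A1 at 0.61 ± 0.17. In glycerolipid synthesis and lipid droplets 5 of 14 rose and 4 fell (median -0.10), led by AGPAT5 (-1.20 ± 0.19), GPAT4 (AGPAT6 on the array, -1.03 ± 0.19) and GPAM (0.86 ± 0.14), acyltransferases of glycerol phosphate and lysophosphatidate.

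On the side of fatty acid use, 11 of 25 oxidation genes rose and 3 fell (median 0.26). EHHADH, a peroxisomal enzyme, rose by 1.40 ± 0.14 and PPARGC1A, a coactivator of oxidative genes, by 0.96 ± 0.17, whereas CPT1A, which admits fatty acids to mitochondria, changed by -1.19 ± 0.12. Of the genes of uptake, binding and lipolysis, 5 of 12 rose and 4 fell (median -0.02), and those with the largest changes were LIPG (-2.08 ± 0.21), the monoglyceride lipase MGLL (-1.59 ± 0.14) and FABP6 (-1.54 ± 0.13). The sterol list, genes known as targets of SREBP, had 14 of 19 genes falling and 2 rising (median -0.61), and MVD, an enzyme of the mevalonate pathway, had the largest change (-1.52 ± 0.23). From 3 to 9 h to 12 to 21 h, 16 of the 19 sterol genes and 8 of the 10 member genes fell, against 12.8% of all genes. In the same step 1 member gene rose, against 16.1% of all genes. From there to 24 to 33 h, 5 of the 19 and 5 of the 10 rose, against 5.47% of all genes. Whether the sterol list and the member genes differed was not tested. The genes named from these lists for their linear change had adjusted p-values from 1.00e-09 (PRKAA1) to 0.00568 (SLC27A1).

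**Figure D4:**
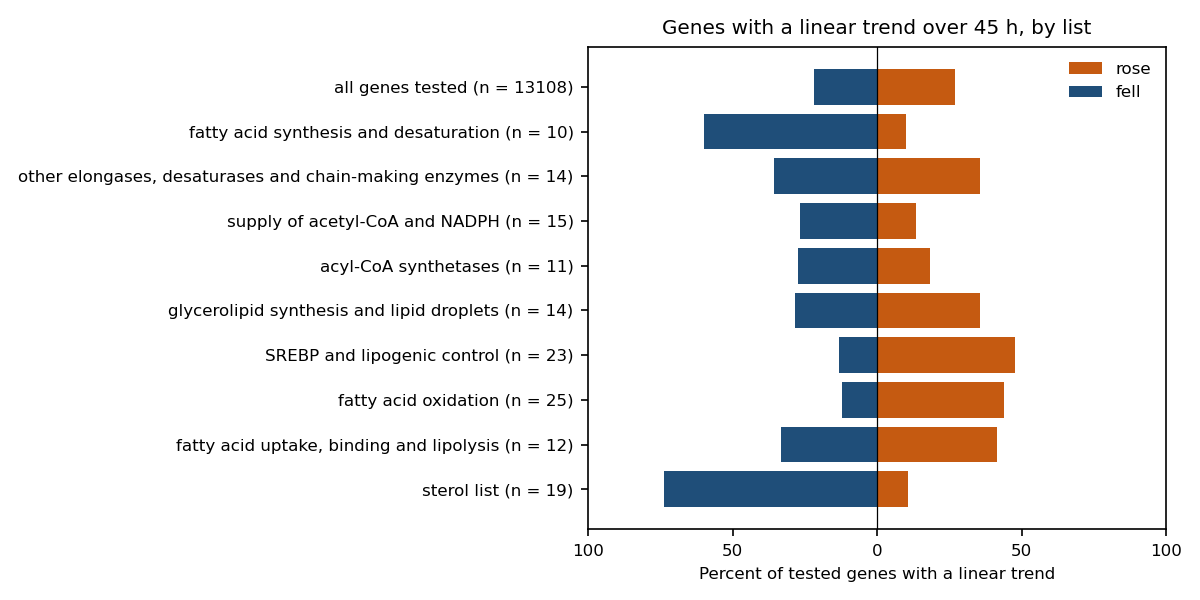
Percent of tested genes with a linear trend over 45 h (horizontal axis, falling to the left and rising to the right) for each list of lipid genes and for all genes tested (vertical axis, with the number tested). The member genes and the sterol list lie to the left, with 6 of 10 and 14 of 19 falling, and the regulators and oxidation genes lie to the right.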

How the data were processed

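Biotin-labelled cRNA was made from total RNA of 16 parallel cultures, and each time point was read on 1 Illumina bead array. The deposited table holds a linear signal intensity per probe and array, which the authors had neither background-subtracted nor normalized, and a detection p-value against negative controls, also deposited by the authors. The study's methods name an Illumina human reference array in their account of time courses of other lines. Scanner software and genome build are not given in the sources used here. Signals were corrected with limma 3.58.1 in R 4.3.3 (neqc with an offset of 16, quantile normalization, log2). The 16110 probes detected (p under 0.05) on 3 or more arrays were tested with lmFit and eBayes with an intensity trend, by a cubic in hours and, separately, by 5 time windows. P-values were two-sided and adjusted by Benjamini-Hochberg over all probes tested, with a threshold of 0.05. The offset and quantile normalization shrink changes of dim and of very bright probes. Background correction can enlarge those of dim probes. The linear changes of FADS1 and FADS2 were -2.09 and -1.75 with correction and offset, and -1.79 and -1.25 without.

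Members and lists were chosen with earlier results of these data known. The text describes every member probe, the 3 genes of each other list with the largest change among those past the threshold, SREBF2, SCAP, INSIG1 and INSIG2, and the 5 genes most correlated with FASN and with SCD. Of the sterol list 1 gene is named for its linear change, and the others that the rule picked for theirs are not reported here. Both fits were tested on simulated data with independent noise and no offsets between sets of arrays, so the effect of such offsets was not tested. Of linear changes of 0.5 and 1 log2 units, 32% and 76% were recovered. For the difference between 24 to 33 h and 12 to 21 h the shares were 44% and 88%. Promoter windows came from RefSeq (GRCh38.p14). Figures were drawn with matplotlib 3.10.9.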

Additional observations from a re-analysis of the deposited data

How the results depend on the processing

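The alternatives were no background correction, an offset of 50, median scaling, cyclic loess, array weights, other filters and courses, a step between 21 and 24 h, the 12 h set as a factor, and each array left out. Among the 14 probes the linear test gave 2 rises and 6 falls under all 4 background and scaling settings. With the set as a factor 1 probe (ELOVL6) was called in place of 8, in a fit that sees only changes within 9 h. Under array weights the linear count was 9, the time-dependent count 12 and the window counts 1 for 3 to 9 h against 0 h and 5 for 36 to 45 h against 24 to 33 h, in place of 8, 10, 0 and 1. Without a filter the time-dependent count was 7. With each array left out, the time-dependent count ranged from 7 to 10, the linear count from 7 to 8 and the curved count from 4 (without the 3 h or the 15 h array) to 8. The 4 window counts ranged from 0 to 1, 9 to 10, 4 to 6 and 1 to 4. The call for FADS2 between 12 to 21 h and 24 to 33 h was lost in 11 of these 16 fits, and that of FADS1 in 4. The FADS2 call was also lost with no background correction (0.32) and with an offset of 50 (0.48).

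The changes of sign concerned FASN and probes that were not past the threshold of the linear test. The bright ACSS2 probes (ILMN_1714197 first) were at -0.068 and -0.072 under median scaling, -0.0084 and -0.025 under cyclic loess, -0.017 and -0.072 under array weights, and -0.74 and -0.75 with the step. ILMN_1714197 was at -0.34 with the set as a factor. ILMN_2336595 ranged from -0.041 to 0.13 with arrays left out. SCD was at -0.047 under median scaling, -0.82 with the step, -0.24 with the set and between -0.030 and 0.15 with arrays left out. FASN was at 0.0019 with the set. With the step, the linear changes of SCD (adjusted p = 0.0473) and ILMN_1714197 (adjusted p = 0.0193), fitted beside a separate jump, were past the threshold in limma. The cause of these changes was not tested. No paired analysis was possible because the design holds 1 array at each time point. The number of arrays, signals near background and, for FASN, signals near the top of the scale limit the estimates.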
